A study of Homo sapiens with 6 samples.

Results

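Teneurins and latrophilins are cell surface proteins that bind each other between neighbouring cells. Their mRNAs were followed in HEK293T cells, a human embryonic kidney line, comparing cells labelled as an ALKBH5 and FTO double knockout with wild type cells. Both of these genes encode enzymes that remove the N6-methyl mark from adenosines in RNA. The 7 genes were taken by symbol: the teneurins TENM1, TENM2, TENM3 and TENM4 and the latrophilins ADGRL1, ADGRL2 and ADGRL3, out of 58721 genes in the deposited count table. The set was chosen by the fall of TENM1 counts in double knockout against wild type in these same libraries, so the difference of TENM1 is given as a description with no test. The other members were taken as its relatives and receptors. All 7 were in the table, and 6 passed the filter on low counts (TENM2 did not).

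Read counts per gene were available for 6 libraries of cytoplasmic RNA, made with ribosomal RNA depletion and no poly(A) selection. The double knockout group, labelled dALKBH5dFTO, held 3 libraries of HEK293T cells in which both genes had been targeted with CRISPR/Cas9. How many clones they came from is not given in the sources used here. For comparison, the wild type group held 3 libraries of HEK293T cells, whose columns are named HEK293G6, a name the labels do not explain. All cells grew in the same serum-containing medium with no other treatment named, and all lysates were made with cycloheximide and received the same spike-in RNAs. The replicates of each group were independent biological replicates per the series description. Clonal or line differences cannot be told apart from the loss of the demethylases.

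Teneurins are large type II transmembrane proteins with an extracellular beta-propeller and barrel-like core, and they form homophilic contacts as well as contacts with latrophilins. Latrophilins are adhesion G protein-coupled receptors: their cleaved extracellular region carries a lectin domain that binds teneurins and an olfactomedin domain that binds FLRT proteins, and ADGRL1 is known as the receptor for the spider toxin alpha-latrotoxin. In the nervous system these contacts guide synapse formation and axon targeting, best studied in mouse and fly. HEK293 cells express many genes otherwise known from neurons.

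The annotated start regions of the teneurins that moved differ in sequence, and 4 of them are shown here because TENM1 and TENM4 went in opposite directions and TENM3 begins inside an antisense gene that moved against it. Each window runs from 250 bases before to 50 bases after a RefSeq start (GRCh38.p14), is read 5′ to 3′ on the gene's strand, and has every CpG dinucleotide in capitals. RefSeq windows were found for 6 of the 7 members, 17 windows in all. The windows are from TENM1 on the minus strand at chrX:124963768-124964067 and chrX:125204263-125204562, TENM3 on the plus strand at chr4:182143713-182144012, and TENM4 on the minus strand at chr11:79440981-79441280.
TENM1 inner start: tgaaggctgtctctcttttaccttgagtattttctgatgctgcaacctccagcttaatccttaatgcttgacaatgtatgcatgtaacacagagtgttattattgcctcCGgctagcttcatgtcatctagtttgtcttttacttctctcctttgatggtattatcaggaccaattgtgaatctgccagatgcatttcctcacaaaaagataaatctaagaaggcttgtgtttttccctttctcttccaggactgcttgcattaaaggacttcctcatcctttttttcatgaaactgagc
TENM1 outer start: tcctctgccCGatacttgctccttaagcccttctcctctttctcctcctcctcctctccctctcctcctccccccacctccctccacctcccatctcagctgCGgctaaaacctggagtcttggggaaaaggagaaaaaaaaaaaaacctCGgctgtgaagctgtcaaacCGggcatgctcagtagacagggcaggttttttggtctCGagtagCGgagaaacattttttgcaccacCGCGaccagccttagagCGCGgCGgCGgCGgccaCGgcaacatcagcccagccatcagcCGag
TENM3: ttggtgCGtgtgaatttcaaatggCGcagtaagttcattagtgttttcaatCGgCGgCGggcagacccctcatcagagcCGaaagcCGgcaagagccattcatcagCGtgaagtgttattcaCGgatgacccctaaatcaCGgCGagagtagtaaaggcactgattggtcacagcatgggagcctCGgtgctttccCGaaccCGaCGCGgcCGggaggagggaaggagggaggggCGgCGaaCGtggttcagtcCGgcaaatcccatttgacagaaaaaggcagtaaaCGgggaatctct
TENM4: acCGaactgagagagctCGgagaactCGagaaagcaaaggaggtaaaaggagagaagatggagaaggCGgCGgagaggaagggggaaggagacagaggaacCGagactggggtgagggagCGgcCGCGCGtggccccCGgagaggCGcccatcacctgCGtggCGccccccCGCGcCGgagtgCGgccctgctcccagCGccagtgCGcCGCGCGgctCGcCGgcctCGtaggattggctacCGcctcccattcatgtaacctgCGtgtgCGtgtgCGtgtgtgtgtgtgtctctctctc
The inner TENM1 window, whose start is also the start of the gene in GENCODE release 29, held 1 CpG and 39.3% G and C. RefSeq has a second TENM3 window, at chr4:182448766-182449065 and not printed here, with 39 CpGs, 75.7% G and C and no CCAAT. The outer TENM1 window, whose start has an offset of -240495 bases (upstream) from the GENCODE start, held 15 CpGs, the printed TENM3 window 22 and the TENM4 window 30, against a median of 14 over all 35116 windows. The motif CCAAT, searched on both strands, was in the inner TENM1, printed TENM3 and TENM4 windows and in 34.6% of all windows. The motif GGGCGG, also searched on both strands, was in both TENM3 windows and in 45.0% of all windows, and TATAAA was in none of these 4 but in 11.5% of all windows. These matches describe letters in a window. Which start the cells used cannot be read from counts per gene.

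Among the teneurins, TENM1 was low in every double knockout library. TENM1 (ENSG00000009694.13, chromosome X, 124375903 to 124963817, hg38, minus strand) is the X-linked member of the family. It had 42, 40 and 31 counts in double knockout replicates 1 to 3, against 320, 286 and 250 counts in wild type replicates 1 to 3. As CPM (library-size scaled counts, with TMM factors) these were 6.99, 6.16 and 4.96 CPM in double knockout and 44.0, 38.8 and 45.4 CPM in wild type. The highest double knockout library lay far below the lowest wild type library. The means were 6.04 ± 1.02 CPM in double knockout and 42.7 ± 3.45 CPM in wild type (SD, n = 3 each), 7.08-fold lower. The fitted log2 fold change of double knockout over wild type was -2.81. Of 14180 tested genes, 13 had a lower fitted log2 fold change. In bulk RNA, fewer cells that express a gene and less of its RNA per cell cannot be told apart.

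TENM3, known in mouse for matching the targets of visual and hippocampal axons, was the main teneurin in both groups. TENM3 (ENSG00000218336.8, chromosome 4, 182143987 to 182803024, plus strand) had 64.6, 60.2 and 60.8 CPM in double knockout and 71.9, 66.1 and 72.4 CPM in wild type. On this scale the groups did not overlap, but the distance between them was small. As TPM (scaled by exon length, defined below) they did overlap, with 18.9 in double knockout replicate 1 and 18.5 in wild type replicate 2. The edgeR quasi-likelihood test, with Benjamini-Hochberg adjustment over all tested genes, called TENM3 lower (log2 fold change -0.18, SE 0.06, adjusted p = 0.00753). This call was lost with total counts as the scale (log2 fold change -0.13, adjusted p = 0.0666) and with DESeq2 (adjusted p = 0.0685), in a range of 0.00196 to 0.0685 over 14 alternatives.

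TENM4, which in mouse takes part in oligodendrocyte differentiation and myelination, was the 1 tested member that was higher in the double knockout. TENM4 (ENSG00000149256.15, chromosome 11, 78652831 to 79440948, minus strand) had 65, 62 and 59 counts in double knockout and 30, 30 and 34 counts in wild type. This was 10.8, 9.54 and 9.44 CPM in double knockout and 4.12, 4.07 and 6.17 CPM in wild type, with no overlap between the groups. TENM4 rose by 1.08 on the log2 scale (SE 0.18, edgeR adjusted p = 3.36e-08), with 9.94 ± 0.771 CPM in double knockout and 4.79 ± 1.20 CPM in wild type (SD, n = 3 each).

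TENM2, a teneurin best known from synapses, was close to the limit of detection. TENM2 (ENSG00000145934.16, chromosome 5, 167284799 to 168264157, plus strand) had 4, 2 and 13 counts in double knockout and 4, 10 and 2 counts in wild type, and a count of 0 would allow up to 3 counts, or 0.407 to 0.545 CPM. Over the libraries this made 19 counts in double knockout and 16 in wild type, a ratio of rates of 1.28 with an exact 95% interval of 0.621 to 2.65 for counting error alone. A difference was not detectable at this depth. The 13 counts lay in double knockout replicate 3. Among 23 genes under the filter with at least 10 counts in all, taken from the members and the 4 partner and relative lists without the cell type markers, a set looked at after the values were seen, replicate 3 was the highest library for 11, against 6 for double knockout replicate 1, 2 for replicate 2 and 0, 3 and 1 for wild type replicates 1 to 3.

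All 3 latrophilins were lower in the double knockout, in every library. ADGRL1 (ENSG00000072071.16, chromosome 19, 14147743 to 14206187, minus strand) had 161, 168 and 167 CPM in double knockout and 222, 229 and 218 CPM in wild type. The libraries within a group lay close together, and the gap between groups exceeded their spread. ADGRL1 fell by 0.43 on the log2 scale (SE 0.04, edgeR adjusted p = 1.49e-24), with 166 ± 3.81 CPM in double knockout and 223 ± 5.56 CPM in wild type (SD, n = 3 each).

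ADGRL2, placed in mouse at synapses of entorhinal inputs in the hippocampus, had the smallest change of the 3 receptors. ADGRL2 (ENSG00000117114.19, chromosome 1, 81306160 to 81992436, plus strand) had 124, 120 and 135 CPM in double knockout and 170, 153 and 153 CPM in wild type. Double knockout replicate 3 came closest to wild type without reaching it. ADGRL2 fell by 0.33 on the log2 scale (SE 0.04, edgeR adjusted p = 1.34e-12).

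ADGRL3, a receptor for both teneurins and FLRT3, had the largest change of the 3. ADGRL3 (ENSG00000150471.16, chromosome 4, 61201258 to 62078335, plus strand) had 26.8, 28.3 and 30.6 CPM in double knockout and 49.5, 48.6 and 51.0 CPM in wild type. The double knockout libraries all lay well below the wild type ones. ADGRL3 fell by 0.79 on the log2 scale (SE 0.08, edgeR adjusted p = 1.58e-20), with 28.6 ± 1.89 CPM in double knockout and 49.7 ± 1.22 CPM in wild type (SD, n = 3 each). The 95% interval of its log2 fold change, -0.95 to -0.64, did not meet those of ADGRL1 (-0.51 to -0.36) and ADGRL2 (-0.42 to -0.25), which overlapped each other; the differences between receptors were not tested.

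Leaving TENM1 aside, 4 of the 5 tested members fell and 1 rose, where 28.5% of all 14180 tested genes fell and 28.6% rose. In all, 57.1% of tested genes were called, so a call on its own sets a member little apart. On TMM-scaled CPM the groups did not overlap in any of the 6 tested members, TENM1 included. This was so for 60.6% of tested genes, 30.3% with double knockout higher and 30.3% with double knockout lower. As TPM the TENM3 libraries of the 2 groups overlapped.

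**Figure D1:**
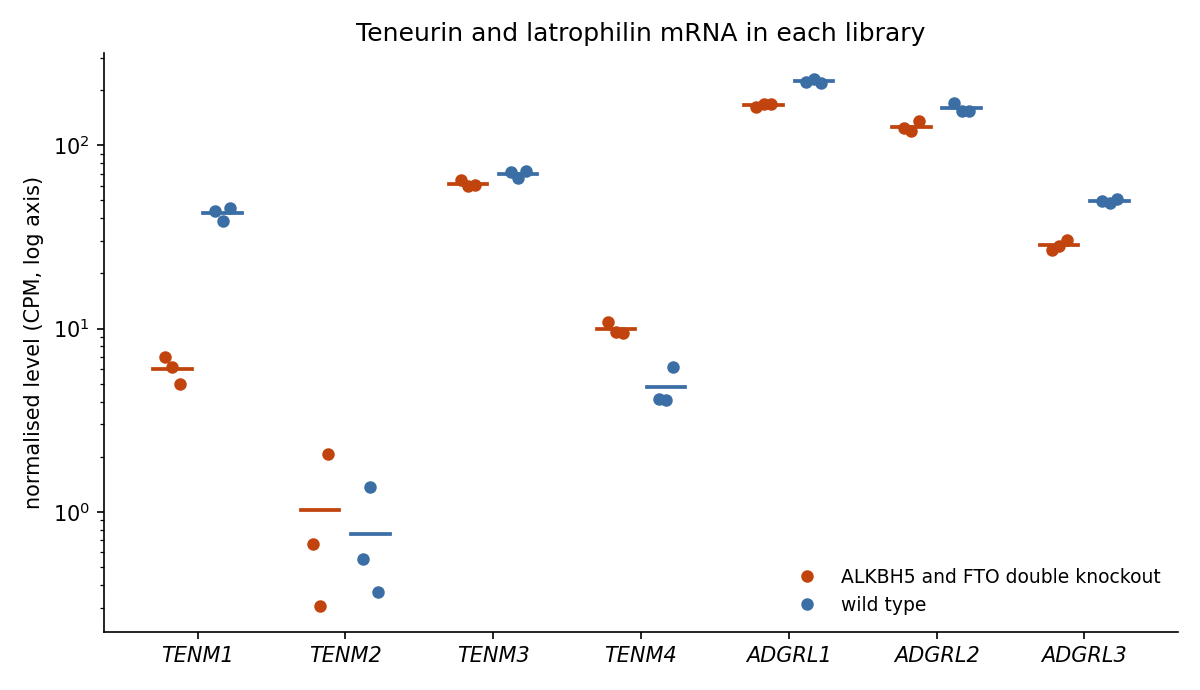
Normalised level (CPM, logarithmic axis) of each teneurin and latrophilin, with double knockout libraries left of wild type libraries. Points are libraries (n = 3 per group) and lines are means. TENM1 lies at 4.96 to 6.99 CPM in double knockout and at 38.8 to 45.4 CPM in wild type, TENM4 is higher in double knockout, and the TENM2 libraries of the groups are mixed.

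Levels per length set the members in order and showed which teneurin the cells mainly carried. Values in TPM, which divide counts by the length of the union of annotated exons and scale each library to the same sum, were used so that genes could be compared. In double knockout, ADGRL1 had 67.0 ± 0.953 TPM, ADGRL2 56.1 ± 4.15, TENM3 17.7 ± 1.03, ADGRL3 7.01 ± 0.467, TENM4 2.09 ± 0.197, TENM1 1.61 ± 0.284 and TENM2 0.318 ± 0.294 TPM (SD, n = 3). In wild type, ADGRL1 had 87.7 ± 3.06 TPM, ADGRL2 68.4 ± 4.66, TENM3 19.5 ± 0.874, ADGRL3 11.8 ± 0.167, TENM1 11.05 ± 0.815, TENM4 0.976 ± 0.231 and TENM2 0.229 ± 0.162 TPM (SD, n = 3). The ranges of neighbours in this order did not overlap within either group, with ADGRL3 and TENM1 in wild type closest to each other (11.7 to 12.0 TPM against 10.1 to 11.6 TPM). TENM1 and TENM4 changed places between the groups: TENM4 was above TENM1 in every double knockout library, and TENM1 was above TENM4 in every wild type library. With the length of the longest transcript in place of the exon union the order was the same in both groups, although ADGRL1 and ADGRL2 then overlapped in double knockout.

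Against other genes, TENM1 went to a low rank. Its mean TPM in double knockout was above that of 3.47% of tested genes, and in wild type above that of 31.1%. ADGRL1 stood above 80.5% of tested genes in double knockout and 86.4% in wild type, and TENM3 above 41.9% in double knockout and 45.6% in wild type.

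The make-up of the teneurin pool therefore differed between the groups, a difference that the choice of TENM1 in part fixes. TENM1 supplied 8.15%, 7.81% and 6.18% of the summed teneurin TPM in double knockout replicates 1 to 3, against 35.1%, 33.8% and 35.3% in wild type. TENM3 supplied 81.6% ± 0.592 in double knockout and 61.5% ± 0.747 in wild type, and TENM4 9.60% ± 0.337 in double knockout and 3.06% ± 0.636 in wild type (SD, n = 3 each). The level of TENM3 itself was not higher, with 17.7 ± 1.03 TPM in double knockout and 19.5 ± 0.874 TPM in wild type. Its larger share in double knockout thus goes with the smaller TENM1 term in the sum. Summed over the 4 genes, teneurin mRNA came to 21.8 ± 1.42 TPM in double knockout and 31.8 ± 1.64 TPM in wild type. Without TENM1 the sums were 21.4, 18.9 and 20.2 TPM in double knockout and 21.2, 19.8 and 21.2 TPM in wild type, and these ranges overlapped. The latrophilin pool was lower as a whole, with 130 ± 5.42 TPM in double knockout and 168 ± 5.98 TPM in wild type, and ADGRL1 supplied most of it (51.5% ± 1.49 in double knockout, 52.3% ± 1.54 in wild type). ADGRL2 supplied 43.1% ± 1.44 in double knockout and 40.7% ± 1.61 in wild type, with ranges that overlapped, and ADGRL3 supplied 5.39% ± 0.184 in double knockout and 7.06% ± 0.312 in wild type, with ranges that did not (SD, n = 3 each). Latrophilin mRNA exceeded teneurin mRNA in every library, by 5.54 to 6.32 times in double knockout and by 4.93 to 5.64 times in wild type.

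**Figure D2:**
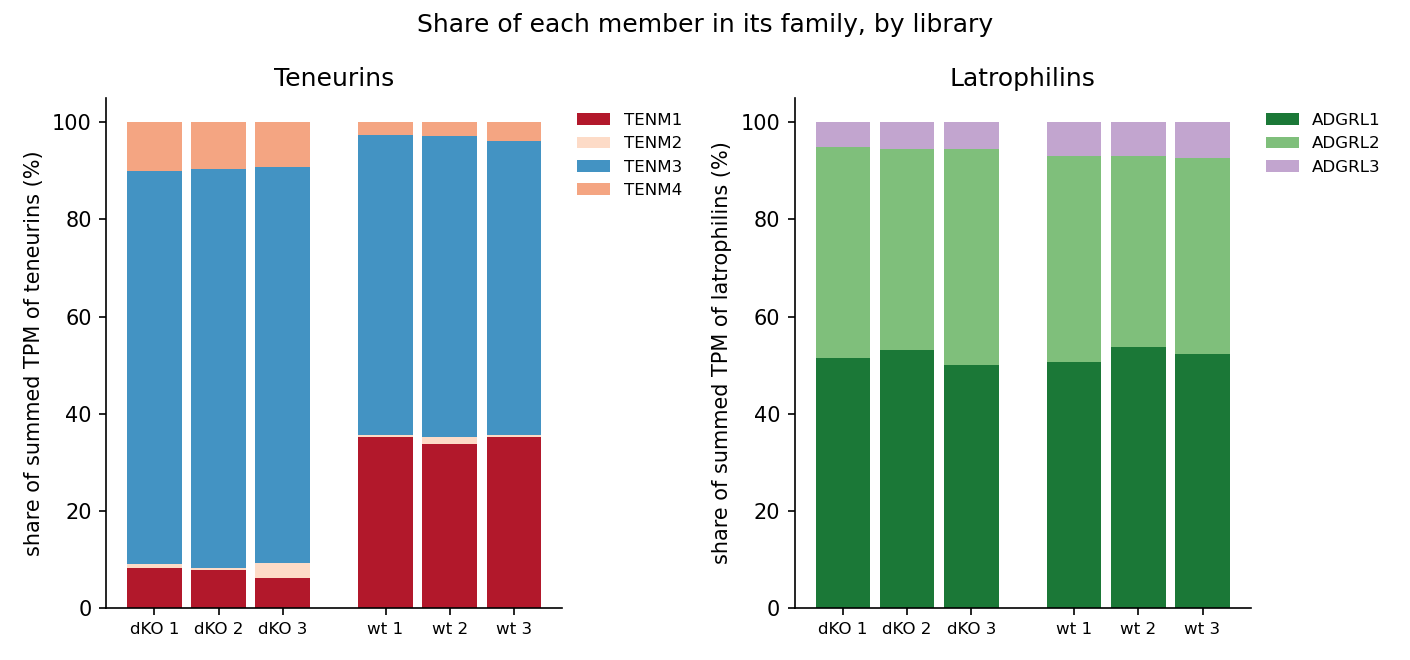
Share of each member in the summed TPM of its family (per cent), 1 bar per library, with double knockout (dKO) libraries left of wild type (wt) libraries. TENM1 takes 6.18% to 8.15% of teneurin TPM in double knockout and 33.8% to 35.3% in wild type, and ADGRL3 takes 5.19% to 5.55% of latrophilin TPM in double knockout and 6.85% to 7.42% in wild type.

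Several members share their locus with other annotated genes, and whether counting used strand is not given in the sources used here. Exons of TENM1 share 241 bases with those of STAG2, a cohesin subunit gene on the opposite strand that meets TENM1 tail to tail. STAG2 had 545, 529 and 547 CPM in double knockout and 551, 562 and 586 CPM in wild type, a log2 fold change of -0.07 (SE 0.03, edgeR adjusted p = 0.0475) whose call was lost in 7 of 14 alternatives. At TENM3, the antisense gene AC098864.1 runs across the TENM3 start and shares 115 exon bases with it. AC098864.1 rose by 0.77 on the log2 scale (SE 0.16, edgeR adjusted p = 9.58e-06), with 10.3, 10.2 and 13.4 CPM in double knockout and 6.60, 6.38 and 6.90 CPM in wild type, against the fall of TENM3. At ADGRL1, the antisense gene AC022098.1 shares 473 exon bases and did not pass (log2 fold change 0.08, SE 0.17, edgeR adjusted p = 0.724), with 8.20 ± 1.42 CPM in double knockout and 7.68 ± 1.93 CPM in wild type. At TENM2 the antisense gene CTB-178M22.2 had 9, 6 and 5 counts in double knockout and 11 counts in each wild type library, and it was not tested. No other gene inside TENM4, ADGRL2 or ADGRL3 passed the filter.

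To show whether the surroundings of each member moved with it, each was set beside the 10 nearest tested genes on each side. Of all tested genes, 28.6% were higher and 28.5% lower, and the counts among the 20 neighbours of TENM3, TENM4 and ADGRL2 lay near these shares. Since TENM1 was picked for its fall, its distance from its neighbours is a description that the choice largely fixes: the 20 neighbours of TENM1 had a median log2 fold change of -0.06, 2 were higher and 7 lower, and none had a log2 fold change as low as TENM1. TENM4 likewise lay 1.09 above the median of its neighbours, of which 5 were higher and 7 lower, and 19 of the 20 had a lower log2 fold change than TENM4. ADGRL1 fell among genes that mostly rose, with 13 higher and 1 lower of 20 and a median of 0.26, and none of them had a lower log2 fold change. ADGRL3 by contrast lay in a stretch of chromosome 4 in which 14 of 20 neighbours were lower and 0 higher, with a median of -0.61, which left ADGRL3 0.19 below that median. The nearest tested genes on the 2 sides of ADGRL3 were EPHA5 at 3.86 Mb and POLR2B at -4.64 Mb, midpoint to midpoint. The neighbours of ADGRL3 reached as far as 8.96 Mb, against 0.58 Mb for those of ADGRL1. Within 5 Mb of ADGRL3 only 9 genes were tested, 5 lower and 0 higher (median -0.37), and ADGRL3 lay 0.42 below that median. TENM3, at the other end of the same chromosome arm, lay 0.07 below its neighbours (median -0.10, 5 higher and 4 lower), but the tested genes within 5 Mb had a median of 0.17, with 12 higher and 0 lower of 29. The neighbours of ADGRL2 had a median of -0.09, with 5 higher and 6 lower, and 3 of the 20 had a lower log2 fold change than ADGRL2. Around the untested TENM2, 5 neighbours were higher and 10 lower (median -0.07), and of the 20 tested genes within 5 Mb 3 were higher and 12 lower (median -0.39). The part of these surroundings in the members' changes was not tested.

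**Figure D3:**
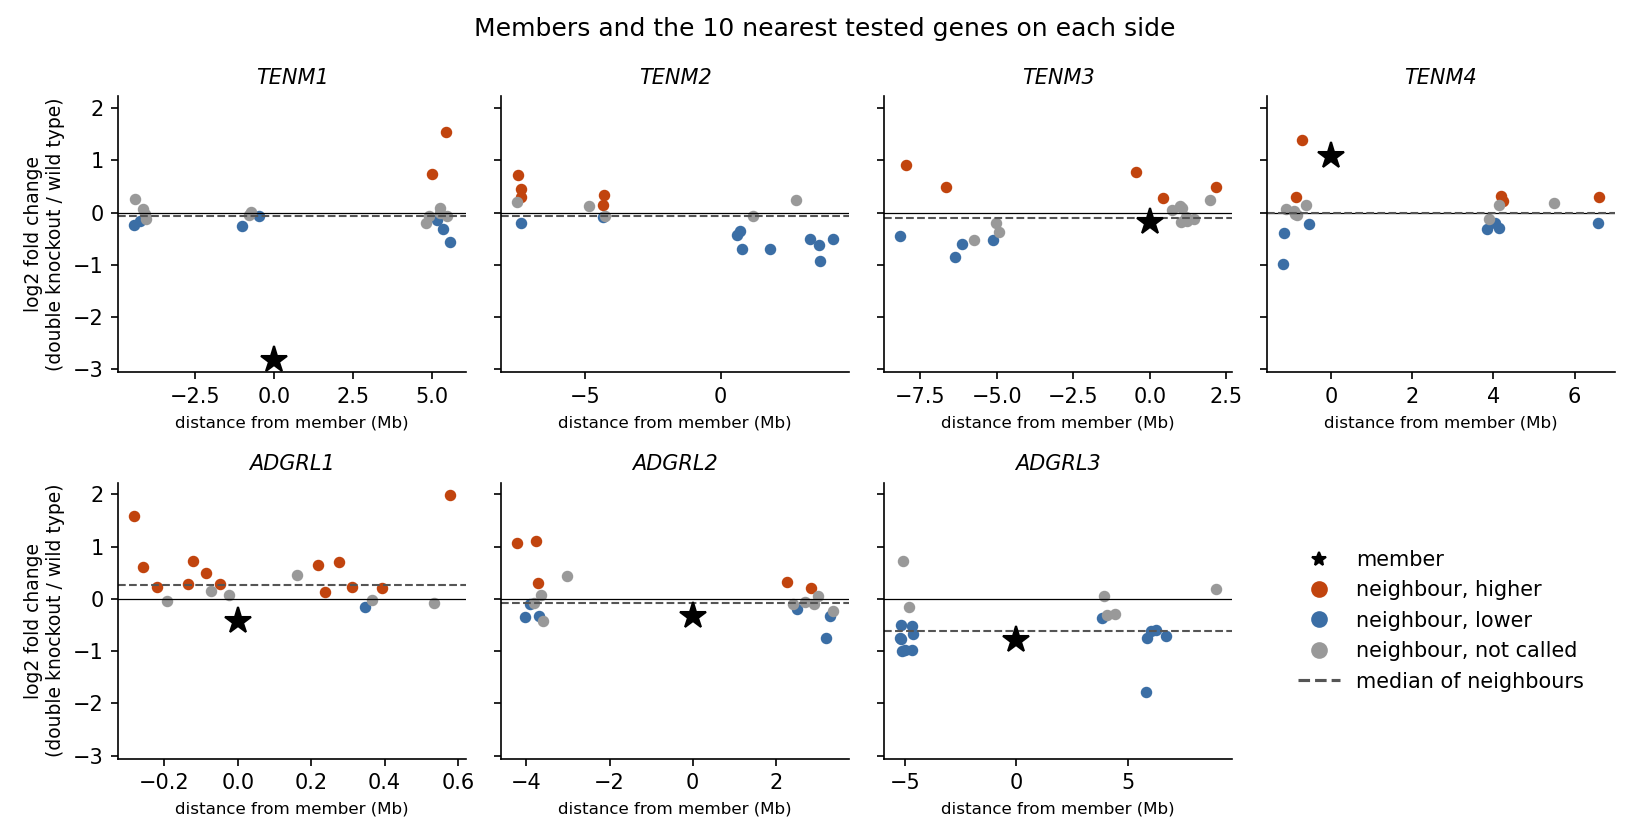
Log2 fold change (double knockout over wild type) of each member, as a star, and of the 10 nearest tested genes on each side against their distance from the member in Mb (midpoint to midpoint), coloured by call. TENM2 has no star because it was not tested. TENM1 lies below all of its neighbours, ADGRL1 lies below neighbours of which 13 were higher, and ADGRL3 lies among neighbours of which 14 were lower. Of all tested genes, 28.6% were higher and 28.5% lower.

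Of 12 other ligands and surface partners listed, 7 were tested: 5 fell, 1 rose and 1 did not pass, where 28.5% of all tested genes fell and 28.6% rose. Of these, UNC5A reached the filter's 10 counts in every library of wild type only, and NRXN3 in every library of double knockout only. The filter thus kept each through the group where it was higher. The tally and the median include both. The median log2 fold change of the 7 was -0.43, against 0.01 over all tested genes. The count of higher genes was 2 without the low-count filter and 0 with a mean of at least 5 CPM. Over all genes these settings called 3889 and 3608 higher, against 4055 in the main fit. FLRT3, a ligand of latrophilins and of UNC5 receptors, had 13.5, 8.46 and 7.84 CPM in double knockout and 23.1, 21.6 and 23.2 CPM in wild type. FLRT3 fell by 1.19 on the log2 scale (SE 0.12, edgeR adjusted p = 6.78e-19), with double knockout replicate 1 above the other two. UNC5C, a netrin receptor of the family that binds FLRT proteins, fell by 1.49 (SE 0.10, edgeR adjusted p = 4.43e-43), with 14.6 ± 1.85 CPM in double knockout and 41.2 ± 2.09 CPM in wild type (SD, n = 3 each). Its relative UNC5B fell by 0.40 (edgeR adjusted p = 4.88e-08), and UNC5A fell by 0.99 (edgeR adjusted p = 0.00873) on 7, 9 and 10 counts in double knockout and 18, 25 and 13 counts in wild type. DAG1, which encodes dystroglycan, fell by 0.43 (SE 0.06, edgeR adjusted p = 7.19e-13).

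The 1 partner that rose was NRXN3, a neurexin; neurexins also bind ADGRL1. NRXN3 had 33, 40 and 39 counts in double knockout and 12, 5 and 10 counts in wild type, and rose by 2.14 on the log2 scale (SE 0.29, edgeR adjusted p = 2.08e-12). NRXN2 did not pass, with a log2 fold change of 0.20 (95% interval -0.24 to 0.64), and FLRT1, FLRT2, UNC5D and CNTN6 were among those under the filter. Around UNC5C and DAG1 the segment also fell, with 14 of 20 neighbours lower in each case (medians -0.41 and -0.30), and around UNC5A 12 of 20 were lower (median -0.30). Of all tested genes, 28.5% were lower and 28.6% higher. UNC5B fell among neighbours of which 8 were higher and 1 lower (median 0.11). Around FLRT3 3 neighbours were higher and 3 lower (median 0.02), and around NRXN3 4 were higher and 6 lower (median -0.04).

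Of 28 intracellular partners and effectors listed, 25 were tested, of which 10 rose, 7 fell and 8 did not pass, where 28.6% of all tested genes rose and 28.5% fell. Their median log2 fold change was 0.05, against 0.01 over all tested genes. Spike-in scaling gave 5 higher and 7 lower, total counts gave 11 higher and 4 lower, and DESeq2 gave 9 higher and 4 lower. Calls over all tested genes moved too, from 4055 higher and 4038 lower in the main fit. They were 2133 higher and 4236 lower with spike-in scaling, 4795 and 3387 with total counts, and 3027 and 3138 with DESeq2. SHANK2, a postsynaptic scaffold of the family that binds latrophilin tails, rose by 2.69 (SE 0.40, edgeR adjusted p = 2.58e-10), with 3.64 ± 0.476 CPM in double knockout and 0.576 ± 0.319 CPM in wild type (SD, n = 3 each). It had 25, 21 and 22 counts in double knockout and 4, 2 and 5 in wild type. SHANK2 thus passed the low-count filter through double knockout alone, the group where it was higher. With a mean of at least 5 CPM it was not tested. ADCY5, also among the risen genes, had 18, 27 and 21 counts in double knockout and 9, 17 and 10 in wild type. It too reached the filter's 10 counts in every library of double knockout only. The tally and the median include both genes. GNAO1, which encodes a G protein alpha subunit abundant in brain, rose by 1.20, and the protease gene FURIN rose by 0.53. RHOA, a small GTPase downstream of several adhesion receptors, fell by 0.31, GNAI2 fell by 0.34 and GNAQ fell by 0.29.

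Of 29 other adhesion G protein-coupled receptors listed, 14 were tested: 8 rose, 2 fell and 4 did not pass, where 28.6% of all tested genes rose and 28.5% fell. Their median log2 fold change was 0.20, against 0.01 over all tested genes. DESeq2 left 5 higher and 2 lower. Over all tested genes DESeq2 called 3027 higher and 3138 lower, against 4055 and 4038 in the main fit. ADGRB1, which in macrophages and neurons takes part in engulfment and synapse formation, rose by 2.37 (SE 0.13, edgeR adjusted p = 3.55e-59), with 31.5 ± 2.93 CPM in double knockout and 6.02 ± 1.30 CPM in wild type (SD, n = 3 each). ADGRE2 rose by 1.98 and the planar polarity cadherin gene CELSR2 rose by 0.80. ADGRB3 fell by 0.75 and ADGRA2 by 0.31. Whether the latrophilins differ from these receptors as a group was not tested.

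Of 40 other synaptic adhesion genes listed, 20 were tested: 2 rose, 8 fell and 10 did not pass, where 28.6% of all tested genes rose and 28.5% fell. Their median log2 fold change was -0.10, against 0.01 over all tested genes. The count of higher genes was 4 with total counts and 4 without the low-count filter. Over all genes these settings called 4795 and 3889 higher, against 4055 in the main fit. SLITRK5, a leucine-rich repeat protein gene, fell by 1.82 (SE 0.12, edgeR adjusted p = 4.99e-43), with 8.54 ± 2.22 CPM in double knockout and 30.5 ± 0.766 CPM in wild type (SD, n = 3 each). The junction gene NECTIN3 fell by 0.94 and PTPRS, a receptor phosphatase gene, by 0.42. LRFN3 and LRFN4 rose by 0.61 and 0.40.

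**Figure D4:**
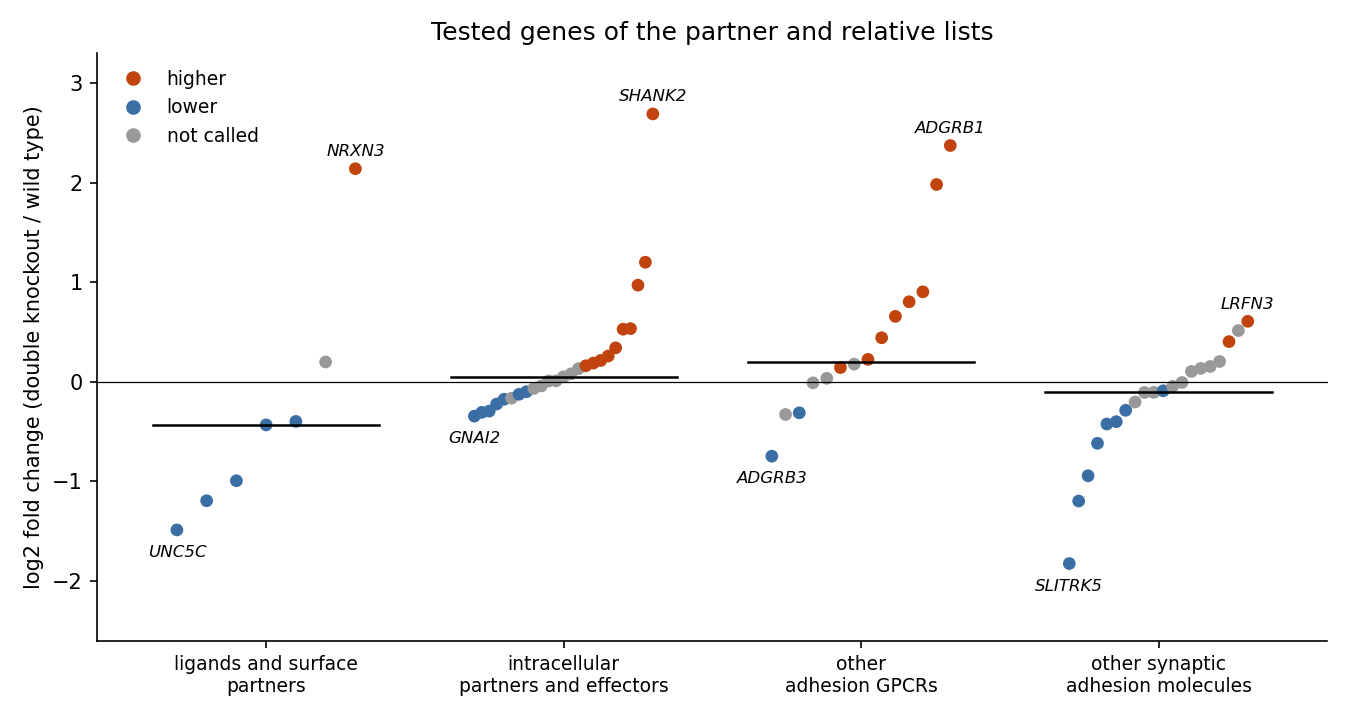
Log2 fold change (double knockout over wild type) of every tested gene of the 4 lists, coloured by call, with a black line at each list's median. The lowest and highest gene of each list are named. In the ligand and surface partner list 5 of 7 genes lie below 0 and are called lower, and NRXN3 stands at 2.14. Of these, UNC5A and NRXN3 each passed the low-count filter through the group where it was higher. Of all tested genes, 28.6% were higher and 28.5% lower.

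The genes whose pattern over the 6 libraries was most like that of TENM1 were named by a distance. This was the root mean square difference of log2(CPM + 0.5), each centred on the wild type mean, over 14179 other tested genes with the 5 nearest taken among those with a mean of at least 1 CPM in either group. They were ZNF502 (0.19), CA2 (0.24), SERPINF1 (0.27), CAV3 (0.31) and IAH1 (0.33), in log2 units. The order is a description that rests on the fall for which TENM1 was picked. CA2 had 4.39 ± 0.690 CPM in double knockout and 25.3 ± 1.07 CPM in wild type, and SERPINF1 had 5.13 ± 0.864 CPM in double knockout and 47.4 ± 0.865 CPM in wild type (SD, n = 3 each). ZNF502, CAV3 and IAH1 had means below 0.5 CPM in double knockout and passed the minimum through wild type alone, so the added 0.5 largely sets their double knockout values and their place in the order.

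As a check of the labels, FTO had 53.8, 53.6 and 61.0 CPM in double knockout and 106, 96.5 and 112 CPM in wild type, and ALKBH5 had 186, 186 and 187 CPM in double knockout and 243, 256 and 235 CPM in wild type. Both fell, with edgeR adjusted p = 4.00e-44 for FTO and 2.74e-22 for ALKBH5, but neither was at 0, and counts of whole genes do not show edits. Total gene counts lay between 5634648 and 7551825 per library. Markers of the kidney epithelium were in part expressed: KRT8, KRT18, EPCAM, PAX2 and LHX1 rose (5 of 6 tested out of 8 listed; sums of 206 to 215 CPM in double knockout and 129 to 147 CPM in wild type), CDH1 did not pass, and PAX8 was at 0 in all libraries. Neuronal markers summed to 269 to 294 CPM in double knockout and 209 to 233 CPM in wild type, and of 7 tested out of 11 listed, 5 rose and 0 fell. Over all tested genes, 28.6% rose and 28.5% fell. SYP and RBFOX3 did not pass, and RBFOX3 leaned lower (log2 fold change -0.54, edgeR adjusted p = 0.0501). TUBB3, STMN2, DCX and SNAP25 were under the filter, the first 3 with 0 to 2 counts in every library. EPCAM and MAP2 reached the filter's 10 counts in every library of double knockout only. Markers of glia summed to 10.3 to 16.5 CPM in double knockout and 7.44 to 8.83 CPM in wild type, with SOX10 at 0. Those of fibroblasts summed to 10.3 to 12.3 CPM in double knockout and 16.7 to 19.7 CPM in wild type (3 of 3 tested fell), with COL1A2 at 0. LUM had 0, 3 and 0 counts in double knockout and 24, 17 and 11 in wild type. COL3A1 had 6, 6 and 1 counts in double knockout and 24, 29 and 23 in wild type. Both reached the filter's 10 counts in wild type only, the group where they were higher. The untested PDGFRB leaned the other way, with 5, 4 and 7 counts in double knockout and 2, 2 and 0 in wild type. Haematopoietic and endothelial markers summed to less than 3 CPM in every library, with CD3E and HBB at 0. The part of these differences in the results above was not tested.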

How the data were processed

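The authors deposited unnormalised counts of reads for each gene in 3 double knockout and 3 wild type libraries. Per the submitters' processing notes, the authors used cutadapt 2.10, STAR 2.7.6a with hg38, and featureCounts. The version of featureCounts, its strand setting and its handling of reads with several alignments are not given in the sources used here. Per the labels' protocols the kit was directional. Columns named HEK293G6 were assigned to wild type as the only other genotype in the labels, by replicate number. All 58721 gene identifiers matched GENCODE release 29. The 4 spike-in entries were left out of library sizes. GFP (7 pg) and FLuc (1.2 pg) RNA served as an alternative scale.

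Counts were fitted in R 4.3.3 with edgeR 4.0.16: filterByExpr (minimum count 10, minimum total 15), TMM scaling, robust glmQLFit and two-sided glmQLFTest, with Benjamini-Hochberg adjustment over all 14180 tested genes and a threshold of 0.05. "Rose", "fell" and "called" mean past that threshold. SE is the size of the log2 fold change over the square root of the F statistic. CPM used TMM-scaled library sizes, and TPM used exon unions. Alternatives were other scales and filters, DESeq2 1.42.0, limma 3.58.1 (voom), a replicate block and leaving out each library.

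Libraries of the same group differed by more than counting noise (chi-square over degrees of freedom 1.10 to 1.38), so none was counted as a duplicate. The members and lists were chosen with earlier results of these data known. Named list genes were the 3 with the smallest p in each direction per list; other listed genes were added after their values were seen. Some listed items are not reported here. Promoter windows came from RefSeq. Intervals and floors on counts cover counting error only.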

Additional observations from a re-analysis of the deposited data

How the results depend on the processing

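TENM4, ADGRL1, ADGRL2 and ADGRL3 kept their direction and their call in all 14 alternatives, with log2 fold changes of 0.97 to 1.27 for TENM4, -0.54 to -0.38 for ADGRL1, -0.44 to -0.28 for ADGRL2 and -0.91 to -0.74 for ADGRL3. TENM1 stayed between -2.93 and -2.69. TENM3 lost its call with total counts (-0.13) and with DESeq2 (-0.18). Leaving out 1 library each gave -0.23 to -0.16 for TENM3. Without the low-count filter TENM2 had a log2 fold change of 0.34 (edgeR adjusted p = 0.687).

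Spike-in scaling lowered the median of all genes by 0.11 and left 2133 genes called higher, against 4055. It gave 5 intracellular partners higher. Under it the neighbour medians were -0.17 (TENM1), -0.18 (TENM2), -0.22 (TENM3), -0.11 (TENM4), 0.14 (ADGRL1), -0.20 (ADGRL2) and -0.72 (ADGRL3). Total counts gave 4 intracellular partners lower, 4 synaptic adhesion genes higher, and neighbour medians of -0.012 (TENM1), -0.052 (TENM3), 0.050 (TENM4), 0.31 (ADGRL1), -0.033 (ADGRL2) and -0.55 (ADGRL3). Without the low-count filter 2 surface partners and 4 synaptic adhesion genes were higher. With a mean CPM of at least 5, 0 surface partners were higher, since NRXN3 was then untested, and neighbour medians were -0.0011 (TENM3), 0.015 (TENM4) and -0.65 (ADGRL3). DESeq2 gave 4 intracellular partners lower and 5 other adhesion receptors higher. Calls over all tested genes were 4795 higher and 3387 lower with total counts, and 3027 higher and 3138 lower with DESeq2. The neighbour median of TENM4 was 0.0014 with limma voom. Within 5 Mb the medians were -0.39 (TENM2), 0.17 (TENM3), 0.15 (ADGRL1) and -0.37 (ADGRL3). The cause was not tested.

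Leaving out 1 library each gave neighbour medians of -0.086 to -0.050 (TENM1), -0.21 to -0.073 (TENM2), -0.13 to 0.034 (TENM4), 0.23 to 0.28 (ADGRL1) and -0.64 to -0.58 (ADGRL3). The neighbour median of TENM4 was -0.0021 with all libraries, 0.034 without double knockout replicate 3, 0.015 without wild type replicate 1 and 0.031 without wild type replicate 3. Replicate numbers did not pair the libraries (correlations of deviations 0.0106, 0.0166 and 0.0085), and with the replicate block no member lost or gained its call: TENM3 had -0.18 (edgeR adjusted p = 0.00605) and TENM1 -2.82, with 4054 genes called higher and 4055 lower. Depth limited TENM2, with 19 counts in double knockout and 16 in wild type.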
